A study of Homo sapiens with 12 samples.

Results

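MV3 melanoma cells held in medium conditioned by macrophages polarized with interleukin 4 and interleukin 13 (M2) were compared, across all genes, with MV3 cells held in medium of unpolarized macrophages (M0). The comparison used 6 of the 12 libraries of the series, 3 labelled M2 and 3 labelled M0, chosen by their labels and not by any measured value. MV3 is an established human line from a melanoma lymph node metastasis. All groups spent 3 h in low-serum medium (1%), followed by 24 h of exposure to the test medium. Both conditioned media came from THP-1 monocytes turned into macrophages with the phorbol ester PMA, and the M2 cells alone were further given interleukin 4 and interleukin 13. The remaining 6 libraries, 3 from cells in fresh unconditioned medium (Ctrl) and 3 from cells in medium of macrophages given lipopolysaccharide and interferon-gamma (M1), entered the fit and are given here as reference levels. Interleukin 4 or 13 left in the M2 medium and products of the M2 macrophages cannot be told apart in this design. One line of tumour cells and 1 line of macrophages were used, and no label calls the replicates separate cultures. The p-values therefore reflect the spread among these libraries alone, possibly a technical one.

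Interleukin 4 and interleukin 13 share a receptor made of IL4R and IL13RA1 on cells outside the blood lineages, and this receptor activates the Janus kinases and the transcription factor STAT6. Textbook targets of that route in epithelial and stromal cells include the eotaxin CCL26 and the feedback inhibitors of the SOCS family. Macrophages polarized by the same cytokines secrete growth factors and matrix-directed signals and fewer inflammatory cytokines than macrophages of the M1 kind. A medium taken from them can therefore carry both the polarizing cytokines and macrophage products to tumour cells.

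The 6 libraries held 21788397 to 36527984 counts, and 14088 of 58288 genes passed the filter on low counts. The M0 libraries differed among themselves more than the M2 libraries. The chi-square per degree of freedom between replicates, which is 1 for pure sampling noise, was 7.53 to 20.7 in M0 and 3.18 to 9.29 in M2, highest between M0 replicates 2 and 3. On the principal component of the 12 libraries that held 6.71% of the variance, M0 stood at -14.7, -7.9 and -34.2 in replicates 1, 2 and 3 and M2 at 14.6, 25.2 and 23.8, so M0 replicate 3 lay farthest from M2. M2 replicate 2 had reads on 25364 genes against 19178 to 20860 in the other 5 libraries, but its mean distance from the M2 mean on tested genes (0.167 log2 units, root mean square) lay between those of M2 replicates 1 and 3 (0.170 and 0.153). Markers of pigmented melanocytes were absent or low, as were the neural crest and melanoma markers S100B and SOX10. TYR and S100B had 0 reads in the 6 libraries, MLANA and SOX10 1 read each, and MITF was listed at 3.101 ± 0.182 CPM (read counts scaled to library size) in M0 and 2.16 ± 0.185 in M2 (SD, n = 3). AXL and EGFR, of the dedifferentiated melanoma markers, were expressed, with AXL at 2126 ± 55.7 CPM in M0. NES and MCAM were expressed as well, so the neural crest and melanoma markers went both ways. RNA of macrophages was near the limit of detection: 2 of 21 marker genes passed the filter (CD33 and MSR1, neither called), the summed level of the 21 was 1.79 to 1.81 CPM in M0 and 1.56 to 2.22 CPM in M2, and SPI1 and AIF1 had 0 reads in the 6 libraries, which allows up to 0.0821 to 0.138 CPM in a library.

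Many genes of the melanoma cells differed between the media by a little and few by much. With edgeR's quasi-likelihood test and an adjusted p under 0.05, 3553 of 14088 genes were called (25.2%), 1765 higher in M2 (12.5%) and 1788 lower (12.7%), and 313 of them by 2-fold or more (2.22%), 214 higher and 99 lower. The 3 M2 libraries did not overlap the 3 M0 libraries in 6555 genes (46.5%). Without M0 replicate 3 the count of calls was 1595, without M2 replicate 2 it was 1933, and without M2 replicate 3 it was 1905. With M0 replicate 3 and M2 replicate 2 both left out it was 520 of 14425 genes (3.6%). Fitting the remaining 4 M0 and M2 libraries alone, an alternative added after seeing the data, gave 1777 calls among 13471 genes. Of these, 1673 were shared with the fit of all libraries. The count with both left out thus also depends on whether the other media enter the estimate of spread. A change is said to hold below where it was called with all libraries and, in the same direction, after leaving out M0 replicate 3, M2 replicate 2, or the pair of them. The fresh and M1 libraries stayed in each of these fits, and a call could end while the fold stayed of similar size.

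The changes that held numbered 510 (3.62% of the tested genes), 296 higher in M2 (2.1%) and 214 lower (1.52%), which is 14.4% of the called genes. Of the 510, 481 were protein coding, 96 changed by 2-fold or more (61 higher, 35 lower) and 230 by less than 1.5-fold. The median absolute log2 fold change was 0.62 among genes that held and 0.37 among called genes that did not. All 3553 called genes kept their direction with both libraries left out, and 442 of the 510 that held had a smaller fold there. The 510 were called again in 509 cases by DESeq2, in 509 when the fit held only the 6 M0 and M2 libraries, and in 506 when each of the other 4 libraries was left out in turn. The 510 had been chosen by passing the fit with the fewest calls, so these counts largely follow from that choice. M0 replicate 3 was the lowest M0 library in 235 of the 296 higher genes (79.4%, against 37.6% of the tested genes) and the highest in 200 of the 214 lower genes (93.5%, against 37.97%). In most of these genes it was thus the M0 library farthest from M2, and the part of this in the fold sizes was measured by leaving it out.

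**Figure D1:**
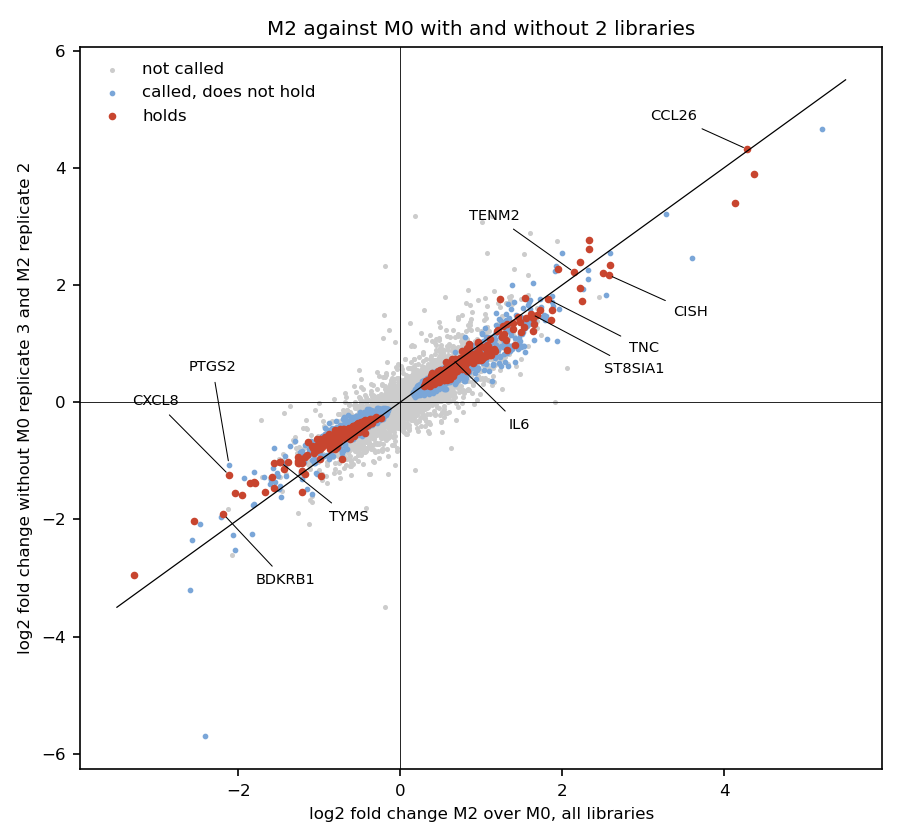
Log2 fold change of M2 over M0 for each tested gene with all 12 libraries in the fit (horizontal axis) and with M0 replicate 3 and M2 replicate 2 left out (vertical axis), with the line of equal values. Red points are the 510 genes that hold, blue points the other called genes, grey points genes not called; CCL26 and TENM2 lie on the line, while CXCL8, PTGS2 and TYMS lie nearer to 0 on the vertical axis.

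Of 24 listed textbook targets of interleukin 4 and 13, 14 lay below the filter on low counts. Of the 10 that passed it CCL26, CISH, TGM2 and IL13RA2 rose, the first 3 of which held, and 6 did not pass the test, while 12.5% of all tested genes rose. CCL26 and CISH passed the filter only through their M2 libraries, so the count and any median over the 10 partly follow from the filter, and the genes are described singly.

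CCL26, which encodes eotaxin-3, a chemokine that draws eosinophils through the receptor CCR3 (ENSG00000006606.8, chr7:75769533-75789896, minus strand), had 0.0337, 0.0466 and 0.0351 CPM in the M0 libraries and 1.06, 0.709 and 0.608 CPM in the M2 libraries. These were 3 reads in M0 and 76 in M2, a read ratio of 21.7 with an exact 95% interval of 7.15 to 107 that covers counting error only (log2 fold change 4.28, SE 0.57, adjusted p = 0.000471). The groups did not overlap, and each M0 library was at the floor of detection. At so few reads the fitted fold depends on the prior count and is no bound. Without the 2 libraries it was 4.32 (adjusted p = 0.0141), and the reference levels were 0.0487 ± 0.0503 CPM in fresh medium and 0.0198 ± 0.0173 CPM in M1 medium. CISH, a member of the SOCS family that restrains cytokine receptor signalling (ENSG00000114737.15, chr3:50606490-50611831, minus strand), had 0.202, 0.186 and 0.105 CPM in the M0 libraries and 0.949, 1.21 and 0.823 CPM in the M2 libraries (log2 fold change 2.57, SE 0.38, adjusted p = 0.000859). Every M2 library lay above every M0 library, and with the 2 libraries left out the log2 fold change was 2.17 (adjusted p = 0.029). In fresh and M1 medium its means were 0.1097 ± 0.0375 and 0.2905 ± 0.145 CPM. TGM2, the tissue transglutaminase that crosslinks proteins, had 73.5, 87.4 and 82.9 CPM in the M0 libraries and 115, 142 and 136 CPM in the M2 libraries (log2 fold change 0.69, SE 0.098, adjusted p = 0.000765). M0 replicate 1 was the lowest library and the groups did not overlap, and without the 2 libraries the log2 fold change was 0.64 (adjusted p = 0.0216). TGM2 was nonetheless lower in M2 than in fresh medium, at 215 ± 6.23 CPM, and than in M1 medium, at 296 ± 37.0 CPM. IL13RA2, the decoy receptor of interleukin 13, rose from 172 ± 27.1 CPM in M0 to 249 ± 23.2 in M2 (log2 fold change 0.53, SE 0.11, adjusted p = 0.00397), a call that ended with both libraries left out, at 0.36 (adjusted p = 0.0867). Its means were 51.8 ± 2.35 CPM in fresh medium and 275 ± 37.1 CPM in M1 medium, the latter above the mean in M2.

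The stretches of promoter below are shown because CISH, CCL26 and TNC are among the rises described here and STAT factors bind known letter patterns. They were taken from RefSeq (GRCh38.p14), run 5′ to 3′ on the gene's strand, begin 250 bases before the RefSeq start and end where the GENCODE gene begins. Capitals mark the letters TTCNNNGAA, the spacing bound by STAT3 and STAT5.
CISH promoter (chr3:50611832-50612024, minus strand): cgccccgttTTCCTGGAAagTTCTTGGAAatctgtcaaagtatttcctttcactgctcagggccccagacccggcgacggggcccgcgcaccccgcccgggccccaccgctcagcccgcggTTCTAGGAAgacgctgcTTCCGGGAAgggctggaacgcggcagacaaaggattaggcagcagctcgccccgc
CCL26 promoter (chr7:75789897-75789996, minus strand): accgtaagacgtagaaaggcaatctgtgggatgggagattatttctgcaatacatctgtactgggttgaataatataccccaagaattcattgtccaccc
TNC promoter (chr9:115118258-115118407, minus strand): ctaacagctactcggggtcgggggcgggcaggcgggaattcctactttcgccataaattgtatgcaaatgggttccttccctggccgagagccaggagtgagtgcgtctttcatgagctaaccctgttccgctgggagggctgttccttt
The CISH stretch held 4 matches, beginning 241, 230, 129 and 112 bases before the start, and 5 of 14272 promoters of tested genes held 4 or more in the full window of 300 bases. The windows of CCL26 and TNC held none. Neither these windows nor that of CISH held TTCNNNNGAA, the spacing bound by STAT6. Over both strands, TTCNNNNGAA was in 4.91% of the 14272 promoters, in 6.27% of 351 promoters of genes that held higher and in 7.09% of 254 promoters of genes that held lower. TTCNNNGAA was in 6.36%, 6.27% and 8.27% of the same sets. A match is a description of letters and not a bound site.

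The receptor and its kinases were present and differed little between the media. IL4R had 49.4, 50.2 and 46.3 CPM in the M0 libraries and 54.9, 57 and 59.98 CPM in the M2 libraries. The 3 M2 libraries lay above the 3 M0 libraries by a small margin, and the test did not pass (log2 fold change 0.24, SE 0.084, adjusted p = 0.0529), although it did under other settings, with adjusted p = 0.0163 when only the 6 M0 and M2 libraries were fitted. IL13RA1 had a log2 fold change of 0.12 (adjusted p = 0.262) and STAT6 of 0.031 (adjusted p = 0.754), with STAT6 at 71.3 ± 2.35 CPM in M0 and 72.9 ± 2.26 in M2. IL2RG, the common gamma chain used by blood cells, had 9 reads in M0 and 5 in M2. SOCS1, another feedback inhibitor, had 0.371, 0.466 and 0.631 CPM in the M0 libraries and 0.624, 0.709 and 0.536 CPM in the M2 libraries, overlapping groups (adjusted p = 0.442). Of 15 tested receptor and JAK-STAT genes 2 rose (13.3%, against 12.5% of all genes) and 0 fell (against 12.7%). The 2 were STAT2, which held, and JAK1 (log2 fold change 0.20, adjusted p = 0.0457), which did not.

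**Figure D2:**
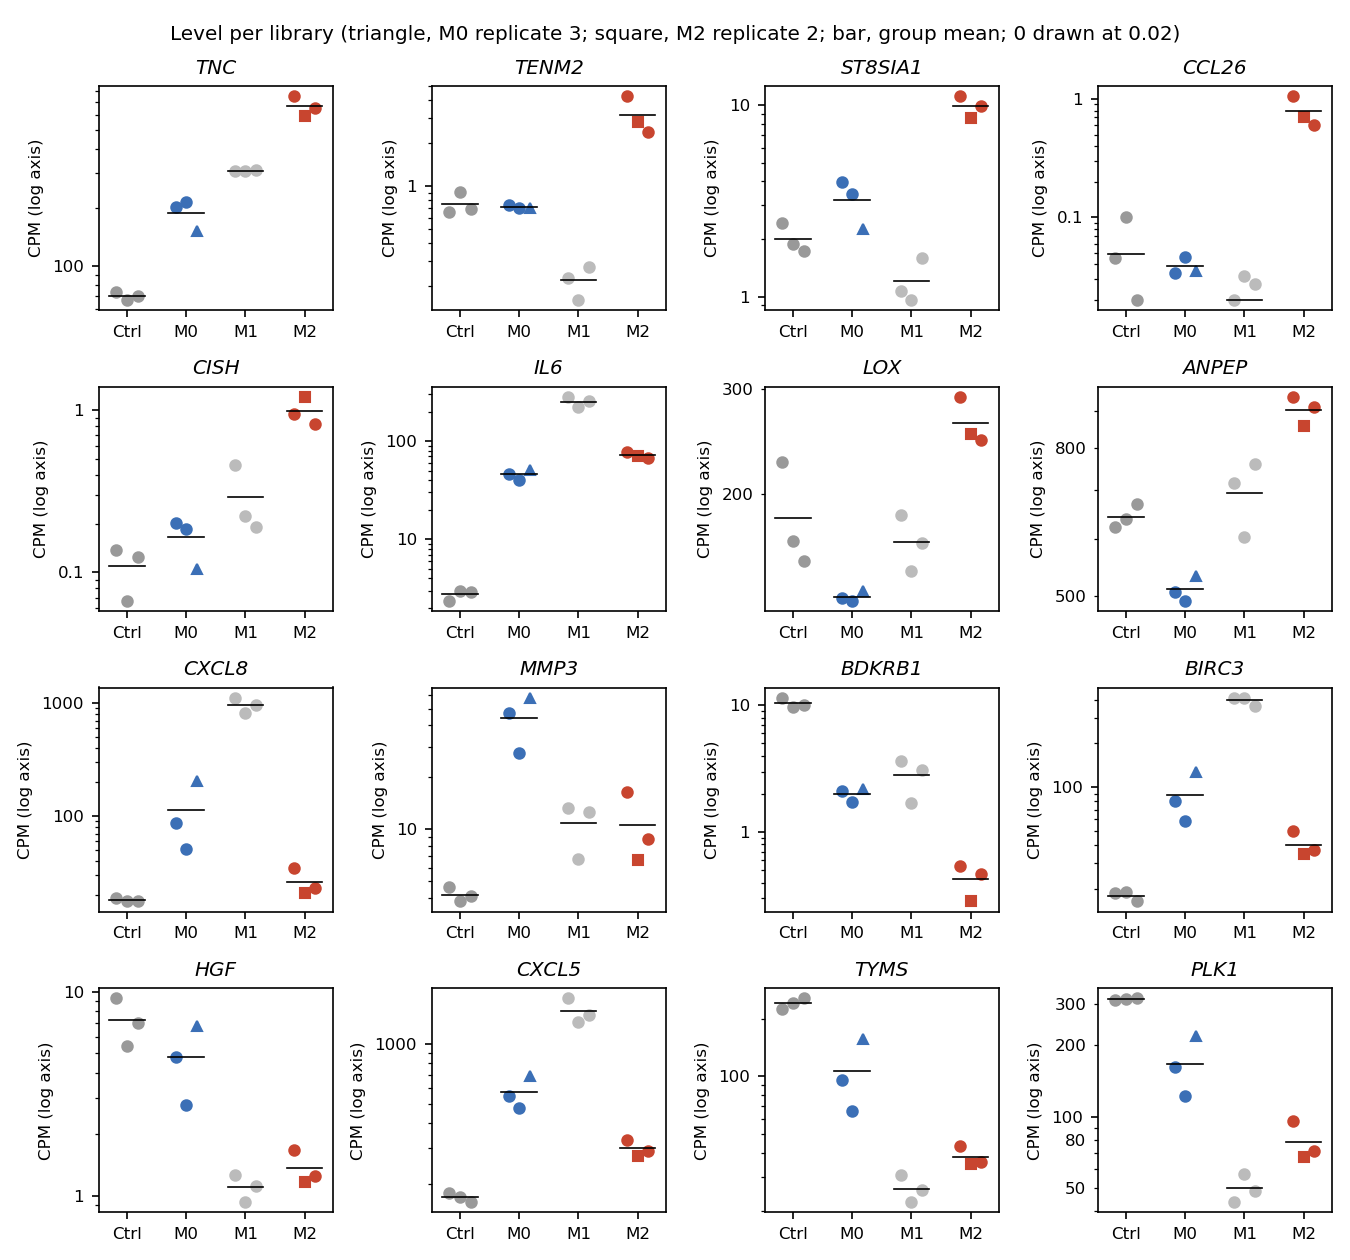
CPM per library on a log axis for 16 genes named in the text, in fresh medium (Ctrl, dark grey), M0 (blue), M1 (light grey) and M2 medium (red); the bar is the group mean, the triangle M0 replicate 3 and the square M2 replicate 2. The 3 M2 points lie wholly above or wholly below the 3 M0 points in these genes, as in 46.5% of tested genes; the panels were chosen among genes that held, all 510 of which do not overlap.

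Tenascin C combined a large change with a small error. TNC, a matricellular glycoprotein of wound beds, invasive fronts and stem cell niches (ENSG00000041982.15, chr9:115019578-115118257, minus strand), had 201, 214 and 151 CPM in the M0 libraries and 751, 597 and 649 CPM in the M2 libraries. The lowest M2 library stood well above the highest M0 library (log2 fold change 1.82, SE 0.11, adjusted p = 5.36e-07), and M0 replicate 3 was the lowest of the 6. Leaving out M0 replicate 3 and M2 replicate 2 moved the log2 fold change only to 1.76 (adjusted p = 4.18e-07). The reference levels were 70.1 ± 3.49 CPM in fresh medium and 309.7 ± 1.65 CPM in M1 medium, so M2 medium had the highest mean of the 4 media.

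Around TNC the matrix genes went both ways. Of 25 tested matricellular and matrix glycoprotein genes 15 did not pass, 6 rose (24%, against 12.5% of all genes) and 4 fell (16%, against 12.7%). Their median stood at 0.15 on the log2 scale, 0.058 without M0 replicate 3 alone and 0.088 with both libraries left out. Besides TNC, those that held were lower: SPARC, an anti-adhesive collagen-binding protein, went from 407 ± 21.6 CPM in M0 to 301 ± 13.03 in M2 (log2 fold change -0.43, SE 0.084, adjusted p = 0.00282), and LAMA4, a laminin alpha chain, from 32.4 ± 2.63 CPM in M0 to 23.03 ± 0.883 in M2 (log2 fold change -0.49, SE 0.087, adjusted p = 0.00177). THBS1, thrombospondin 1, rose from 198 ± 36.4 CPM in M0 to 335 ± 26.8 in M2, but its call ended with both libraries left out, at 0.61 (adjusted p = 0.0688). LAMB3, a laminin chain of epithelial basement membranes, had a log2 fold change of -0.62, and with both left out the call ended at nearly the same fold, -0.60 (adjusted p = 0.0754).

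Collagen chains rose in 4 of 15 tested genes and fell in none, against 12.5% higher among all genes, and 3 of them held. COL5A1, the chain that starts fine collagen fibrils, had 58.9, 61.1 and 41.8 CPM in the M0 libraries and 94.7, 98.2 and 99.6 CPM in the M2 libraries. The groups did not overlap, with M0 replicate 3 lowest (log2 fold change 0.86, SE 0.12, adjusted p = 0.000799); with both libraries left out the log2 fold change was 0.70 (adjusted p = 0.0133). COL27A1 rose from 6.44 ± 1.15 CPM in M0 to 11.6 ± 1.05 in M2 and COL6A3 from 3.82 ± 0.378 CPM in M0 to 6.15 ± 0.184 in M2, with adjusted p of 0.000797 and 0.00306. The other 11, COL1A1, COL5A2, COL6A1 and COL18A1 among them, did not pass.

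Of 21 tested matrix proteases, crosslinking enzymes and protease inhibitors 5 rose (23.8%, against 12.5% of all genes) and 2 fell (9.52%, against 12.7%). LOX, lysyl oxidase, which crosslinks collagen and elastin (ENSG00000113083.13, chr5:122063195-122078360, minus strand), had 134, 133 and 138 CPM in the M0 libraries and 291, 253 and 246 CPM in the M2 libraries. The M0 libraries lay within a few CPM of each other and below each M2 library (log2 fold change 0.96, SE 0.12, adjusted p = 0.000409), and without the 2 libraries the value was 1.01 (adjusted p = 0.00795). SERPINE2, an inhibitor of thrombin and plasminogen activators, had 782, 777 and 624 CPM in the M0 libraries and 1115, 1029 and 1089 CPM in the M2 libraries (log2 fold change 0.57, SE 0.10, adjusted p = 0.00187) and held. MMP3, stromelysin 1, a protease of matrix glycoproteins (ENSG00000149968.11, chr11:102835801-102843803, minus strand), went the other way. It had 47.3, 27.6 and 57.98 CPM in the M0 libraries and 16.5, 6.63 and 8.76 CPM in the M2 libraries. All M2 libraries lay below all M0 libraries, although the M0 libraries spread widely and M2 replicate 1 was the highest of M2 (log2 fold change -2.04, SE 0.31, adjusted p = 0.000915). Without the 2 libraries its log2 fold change was -1.55 (adjusted p = 0.0287), and in fresh medium it stood at 4.18 ± 0.403 CPM. In M1 medium the mean of MMP3 was 10.9 ± 3.64 CPM, near that in M2 (10.6 ± 5.22).

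Among neural adhesion and guidance genes TENM2 changed most. TENM2 encodes teneurin 2, a transmembrane protein that binds latrophilin receptors across cell contacts (ENSG00000145934.16, chr5:167284799-168264157, plus strand), and it had 0.742, 0.698 and 0.701 CPM in the M0 libraries and 4.26, 2.802 and 2.396 CPM in the M2 libraries. The M0 libraries were level with each other and with fresh medium (0.751 ± 0.133 CPM), each M2 library lay far above them, and M1 medium stood lowest at 0.2203 ± 0.0568 CPM (log2 fold change 2.15, SE 0.25, adjusted p = 0.000314). Without the 2 libraries the log2 fold change was 2.22 (adjusted p = 0.00683). EFNB2, the ligand ephrin B2, rose from 12.8 ± 2.48 CPM in M0 to 24.4 ± 2.45 in M2 (log2 fold change 0.93, SE 0.14, adjusted p = 0.00085) and held. Of 30 tested teneurin and axon guidance genes 10 rose (33.3%, against 12.5% of all genes) and 3 fell (10%, against 12.7%), with a median log2 fold change of 0.19. Those that rose and did not hold included the plexins PLXNB1, PLXND1, PLXNA2 and PLXNA1, receptors of semaphorins, and the latrophilins ADGRL1 and ADGRL2, at log2 fold changes of 0.61, 0.58, 0.48, 0.35, 0.46 and 0.37. The semaphorins SEMA3A and SEMA3C and the netrin receptor DCC fell by 0.54, 0.57 and 1.10 on the log2 scale, calls that ended with both libraries left out.

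ST8SIA1, the GD3 synthase that makes a ganglioside typical of melanoma (ENSG00000111728.10, chr12:22063773-22437041, minus strand), had 3.95, 3.45 and 2.24 CPM in the M0 libraries and 11.1, 8.55 and 9.87 CPM in the M2 libraries. M0 replicate 3 was the lowest library and M2 replicate 2 the lowest of M2, and the groups did not overlap (log2 fold change 1.62, SE 0.20, adjusted p = 0.000411). The call held without these 2 libraries (adjusted p = 0.00608), and M1 medium had the lowest level at 1.202 ± 0.333 CPM. Of 17 ganglioside and sialic acid genes 6 rose (35.3%, against 12.5% of all genes) and 1 fell (5.88%, against 12.7%), and ST8SIA1 alone held. The others that rose, among them the next enzyme of the pathway B4GALNT1 (log2 fold change 0.36) and the sialyltransferase ST6GAL1 (0.51), had adjusted p of 0.101 and 0.0816 with both libraries left out. Of 10 tested keratins 3 rose (against 12.5% of all genes) and 0 fell: KRT16, a keratin of activated epidermis, went from 5.54 ± 1.69 CPM in M0 to 11.7 ± 0.894 in M2 (log2 fold change 1.09, SE 0.19, adjusted p = 0.00147), KRT18 from 67.8 ± 4.05 CPM in M0 to 84.8 ± 0.738 in M2 and KRT14 from 25.3 ± 6.15 CPM in M0 to 42.8 ± 3.91 in M2. KRT16 and KRT18 held, and KRT14 did not. KRT16 stood at 0.206 ± 0.0208 CPM in fresh and 0.973 ± 0.306 CPM in M1 medium.

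Receptors of the interleukin 6 family signal through gp130 and STAT3. Of 18 tested genes, receptors, ligands and STAT3 targets together, 8 rose (44.4%, against 12.5% of all genes), 2 fell (11.1%, against 12.7%) and 8 did not pass, the median log2 fold change was 0.30, or 0.20 with both libraries left out, and OSMR, IL6 and SOCS3 held. IL6 (ENSG00000136244.11, chr7:22725884-22732002, plus strand) had 46.8, 40.1 and 50.9 CPM in the M0 libraries and 77.4, 70.02 and 67.5 CPM in the M2 libraries. M0 replicate 3 was the highest M0 library here and still below each M2 library (log2 fold change 0.64, SE 0.10, adjusted p = 0.00102), and without the 2 libraries the value was 0.74 (adjusted p = 0.0133). M1 medium gave a higher level, 253 ± 30.1 CPM. OSMR, the oncostatin M receptor, had 305, 336 and 244 CPM in the M0 libraries and 440.4, 498 and 479.6 CPM in the M2 libraries (log2 fold change 0.68, SE 0.12, adjusted p = 0.0016), with M0 replicate 3 lowest and no overlap. In M1 medium the mean of OSMR was 462 ± 45.7 CPM, near that in M2 (473 ± 29.3). SOCS3, the feedback inhibitor of gp130, rose from 24.3 ± 2.31 CPM in M0 to 34.8 ± 1.68 in M2 (log2 fold change 0.52, SE 0.084, adjusted p = 0.00118). LIFR, the leukaemia inhibitory factor receptor, rose from 4.36 ± 1.21 CPM in M0 to 7.62 ± 0.0964 in M2, but its call ended with both libraries left out, at 0.61 (adjusted p = 0.0816).

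A few interferon pathway genes rose while the bulk did not. Of 34 tested type I interferon-stimulated genes 5 rose, 3 fell and 26 did not pass, a share near that of all genes. The 4 that held were IRF9 and STAT2, subunits of the transcription factor ISGF3, and PARP9 and DTX3L, which act as 1 complex. STAT2 had 27.4, 28.2 and 19.5 CPM in the M0 libraries and 39.2, 45.2 and 43.02 CPM in the M2 libraries. M0 replicate 3 was the lowest library, and without it and M2 replicate 2 the log2 fold change went from 0.76 to 0.57 (adjusted p = 0.00683). IRF9 rested on 10 reads in M0 and 56 in M2 (log2 fold change 2.22, SE 0.45, adjusted p = 0.00343), PARP9 rose from 10.3 ± 0.551 CPM in M0 to 15.8 ± 0.8804 in M2 and DTX3L from 70.9 ± 4.86 CPM in M0 to 97.3 ± 4.94 in M2. OAS3 and IFI44, antiviral effectors, fell by 0.63 and 0.82 on the log2 scale, and neither held. Of 19 class I antigen presentation genes 1 rose (5.26%, against 12.5% of all genes) and 6 fell (31.6%, against 12.7%), the immunoproteasome subunits PSMB8 and PSMB9 among the latter, and none held.

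Of 18 tested cytokine and chemokine genes 3 rose (16.7%, against 12.5% of all genes), namely CCL26, IL6 and CSF1, and 5 fell (27.8%, against 12.7%). CCL26 passed the filter only through its M2 libraries, so the count of genes that rose partly follows from the filter. The median of the 18 was -0.15 on the log2 scale, or -0.012 with both libraries left out. Their mean level in M0 replicate 2 stood -0.129 log2 units from the 6-library mean, below M2 replicate 1 at 0.045, so the groups overlapped. CXCL8 and CXCL5 were the 2 that held lower. CXCL8, interleukin 8 (ENSG00000169429.10, chr4:73740506-73743716, plus strand), had 87.1, 51.1 and 205 CPM in the M0 libraries and 34.9, 21.04 and 23.1 CPM in the M2 libraries. M0 replicate 3 stood far above the other M0 libraries, and all M2 libraries were below all M0 libraries (log2 fold change -2.11, SE 0.35, adjusted p = 0.00132). With both libraries left out the log2 fold change was -1.25 (adjusted p = 0.0179), a smaller change that still held. Fresh medium gave 18.1 ± 0.667 CPM and M1 medium 969.6 ± 147 CPM. CXCL5, a related chemokine, had 549.6, 477 and 689 CPM in the M0 libraries and 332, 275 and 292 CPM in the M2 libraries (log2 fold change -0.93, SE 0.12, adjusted p = 0.000444), and -0.72 (adjusted p = 0.0132) without the 2 libraries. CXCL1 and CXCL3 had log2 fold changes of -0.92 and -0.92, which ended with both libraries left out (adjusted p = 0.174 and 0.396). CXCL2, of the same family, had 8.37, 6.52 and 11.8 CPM in the M0 libraries and 7.97, 5.64 and 6.44 CPM in the M2 libraries, and the groups overlapped (adjusted p = 0.118). IL1B, interleukin 1 beta, had 98.2, 108 and 119 CPM in the M0 libraries and 108, 114 and 101 CPM in the M2 libraries, overlapping groups with a log2 fold change of -0.0087 (adjusted p = 0.953).

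Genes of NF-kB subunits and feedback regulators fell more often than they rose. Of 23 tested, 2 rose and 7 fell (30.4%, against 12.7% of all genes, and 8.7% against 12.5% for those that rose), and 2 held. Their median was -0.17 on the log2 scale, or -0.097 with both libraries left out. BIRC3, the apoptosis inhibitor cIAP2 induced by NF-kB, had 79.9, 58.8 and 126 CPM in the M0 libraries and 49.5, 34.5 and 36.7 CPM in the M2 libraries. The groups did not overlap, with M0 replicate 3 highest (log2 fold change -1.13, SE 0.20, adjusted p = 0.00177), and leaving out the 2 libraries gave -0.68 (adjusted p = 0.0319). TNFAIP3, the A20 enzyme that shuts NF-kB off, had 21.02, 21.6 and 25.2 CPM in the M0 libraries and 15.5, 14.9 and 13.7 CPM in the M2 libraries (log2 fold change -0.62, SE 0.08, adjusted p = 0.000423), and -0.54 (adjusted p = 0.0102) without them. NFKB1, NFKBIA, RELB, BIRC2 and TRAF1 fell by 0.40, 0.33, 0.24, 0.36 and 0.65 on the log2 scale and did not hold, and TNFAIP2 and BCL3 rose without holding. ICAM1, the adhesion receptor for leukocytes, had 68.4, 73.1 and 99.4 CPM in the M0 libraries and 61.1, 63.8 and 61.3 CPM in the M2 libraries (log2 fold change -0.37, SE 0.12, adjusted p = 0.0338), and the call ended without M0 replicate 3, at a log2 fold change of -0.18 (adjusted p = 0.23).

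Of 10 tested prostaglandin and bradykinin genes 4 fell (40%, against 12.7% of all genes) and 0 rose (against 12.5%), and their median was -0.36 on the log2 scale, or -0.25 with both libraries left out. BDKRB1, the inducible bradykinin receptor B1 (ENSG00000100739.10, chr14:96255824-96268967, plus strand), had 2.09, 1.72 and 2.17 CPM in the M0 libraries and 0.542, 0.284 and 0.465 CPM in the M2 libraries. The M0 libraries were close together, each above the M2 libraries (log2 fold change -2.19, SE 0.32, adjusted p = 0.000799), and without the 2 libraries the value was -1.91 (adjusted p = 0.0244). Fresh medium had the highest level, 10.4 ± 0.9498 CPM. PTGES, prostaglandin E synthase, had 3.104, 2.84 and 1.82 CPM in the M0 libraries and 1.004, 1.31 and 1.04 CPM in the M2 libraries, with M0 replicate 3 the lowest of M0 (log2 fold change -1.21, SE 0.30, adjusted p = 0.00938), and it held at -1.54 (adjusted p = 0.0341). PTGS2, the inducible cyclooxygenase, had 31.9, 19.2 and 91.8 CPM in the M0 libraries and 14.1, 8.62 and 10.2 CPM in the M2 libraries. M0 replicate 3 stood far above the other M0 libraries (log2 fold change -2.12, SE 0.42, adjusted p = 0.00322), and with both libraries left out the call ended, at -1.07 (adjusted p = 0.0601).

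Growth factors and receptors of other pathways followed no common direction. Of 28 tested receptor tyrosine kinases and their ligands 6 rose (21.4%, against 12.5% of all genes) and 7 fell (25%, against 12.7%), and HGF alone held. HGF, the ligand of MET (ENSG00000019991.15, chr7:81699008-81770438, minus strand), had 4.76, 2.79 and 6.8 CPM in the M0 libraries and 1.68, 1.17 and 1.25 CPM in the M2 libraries. Each M2 library lay below M0 replicate 2, the lowest of M0 (log2 fold change -1.80, SE 0.29, adjusted p = 0.00115). M1 medium had a lower mean than M2, at 1.105 ± 0.170 CPM. Without the 2 libraries the log2 fold change was -1.37 (adjusted p = 0.0358). Of 30 genes of TGF-beta, BMP and activin signalling 5 rose (16.7%, against 12.5% of all genes) and 2 fell (6.67%, against 12.7%). PMEPA1, a TGF-beta feedback gene, rose from 1.87 ± 0.6502 CPM in M0 to 4.67 ± 0.885 in M2, FSTL3, which binds activins, from 8.17 ± 2.44 CPM in M0 to 18.1 ± 0.795 in M2, and BMP2 went from 44.8 ± 10.5 CPM in M0 to 25.4 ± 0.234 in M2, and these 3 held. INHBE, the activin beta E subunit and a stress-responsive hepatokine, had 52.4, 57.7 and 39.7 CPM in the M0 libraries and 97.9, 103 and 109.5 CPM in the M2 libraries (log2 fold change 1.06, SE 0.12, adjusted p = 0.0002) and held. In M1 medium the mean of INHBE was 99.7 ± 11.5 CPM, near that in M2 (104 ± 5.80). Of the 33 tested genes of the ATF4 amino acid response 4 rose (12.1%, against 12.5% of all genes) and 3 fell (9.09%, against 12.7%).

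Cell cycle genes made up the most uniform group. Of 44 tested mitosis and spindle genes 39 fell (88.6%, against 12.7% of all genes) and 0 rose, and the median log2 fold change was -0.85. Without M0 replicate 3 alone 36 fell and the median was -0.62, without M2 replicate 2 alone 37 fell with -0.77, and with both left out 11 fell with a median of -0.55, when 43 of 44 were below 0. The size of this difference moved with single libraries. The mean of the 44 genes stood 0.379, 0.0084 and 0.747 log2 units from the mean of the 6 libraries in M0 replicates 1, 2 and 3, and -0.122, -0.525 and -0.488 in M2 replicates 1, 2 and 3. M0 replicate 3 was the highest and M0 replicate 2 the lowest M0 library in 44 of 44 genes. Bulk counts do not separate fewer cells in mitosis from less RNA per cell.

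PLK1, a kinase that drives mitotic entry and spindle assembly (ENSG00000166851.14, chr16:23677656-23690367, plus strand), had 161, 122 and 218 CPM in the M0 libraries and 96.1, 67.9 and 71.4 CPM in the M2 libraries. M2 replicate 1 was the nearest M2 library to M0, and the groups did not overlap (log2 fold change -1.09, SE 0.17, adjusted p = 0.000949). Without the 2 libraries the log2 fold change was -0.76 (adjusted p = 0.0237), and fresh medium had the highest level at 313 ± 2.43 CPM, with M1 medium at 49.8 ± 7.04. Also held were TPX2, a spindle assembly factor, from 956 ± 267 CPM in M0 to 484 ± 71.8 in M2, CDK1, the mitotic kinase, from 276 ± 75.7 CPM in M0 to 143 ± 26.2 in M2, and BIRC5, survivin, from 211 ± 43.8 CPM in M0 to 112 ± 8.58 in M2. Calls of AURKA, TOP2A, CCNB1 and KIF20A ended with both left out, at adjusted p of 0.0816, 0.108, 0.0816 and 0.0632.

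Genes of DNA replication and nucleotide synthesis fell in 26 of 42 cases (61.9%, against 12.7% of all genes) and rose in 1 (UHRF1; 2.38%, against 12.5%), with a median of -0.39, or -0.31 with both libraries left out, when 12 fell. TYMS, thymidylate synthase (ENSG00000176890.15, chr18:657604-673578, plus strand), had 96.03, 65.97 and 157 CPM in the M0 libraries and 43.6, 34.9 and 36.01 CPM in the M2 libraries. Again M0 replicate 3 was the highest and the groups did not overlap (log2 fold change -1.48, SE 0.22, adjusted p = 0.00085). Without the 2 libraries this became -1.02 (adjusted p = 0.0132). In M1 medium the mean of TYMS was 26.1 ± 4.23 CPM, below that in M2 (38.1 ± 4.72). RRM2, the regulated subunit of ribonucleotide reductase, went from 155 ± 34.7 CPM in M0 to 83.1 ± 4.78 in M2, and CDC45, part of the replicative helicase, from 24.04 ± 4.45 CPM in M0 to 12.1 ± 1.68 in M2, and both held. The mean of the 42 genes was higher in each M0 library (0.115 to 0.328 log2 units above the 6-library mean) than in each M2 library (-0.207 to -0.160). Of 22 G1 cyclins and CDK inhibitors 2 rose (9.09%, against 12.5% of all genes), CCND1 and CCND2, and 7 fell (31.8%, against 12.7%), of which CDK2 and CDKN2C held. CDKN1A, the p21 inhibitor, did not pass (log2 fold change 0.43, adjusted p = 0.114).

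**Figure D3:**
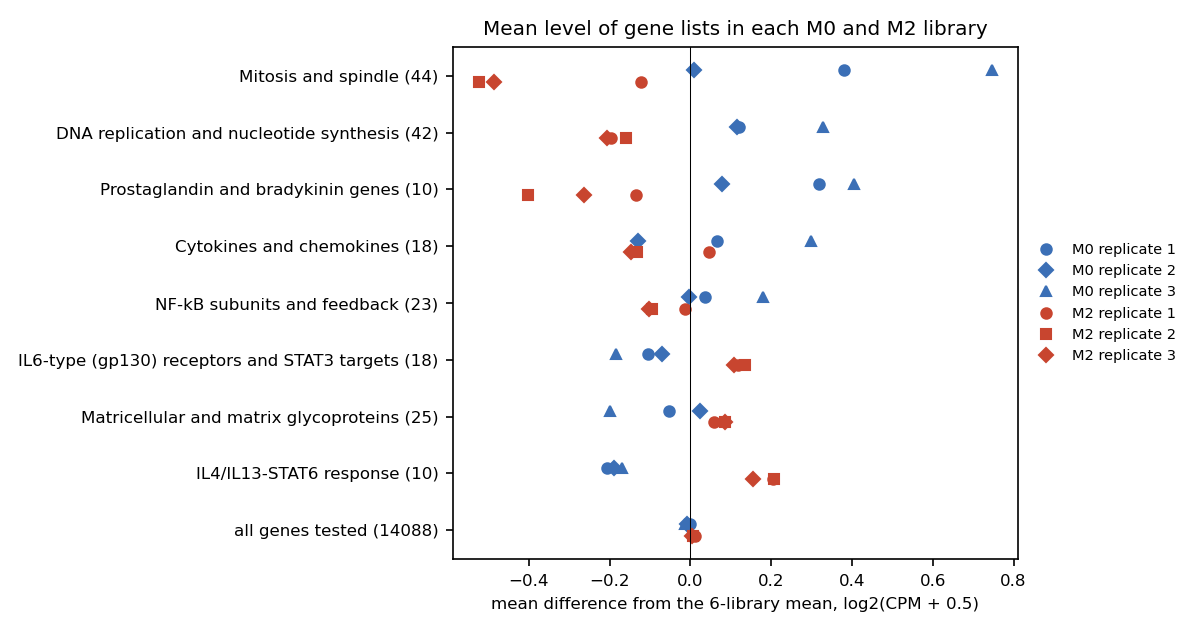
Mean difference of each M0 (blue) and M2 (red) library from the mean of the 6 libraries, on the log2(CPM + 0.5) scale, for 8 gene lists and all tested genes, with the number of tested genes in parentheses. The mitosis list spreads from 0.0084 to 0.747 over the M0 libraries. The interleukin 4 and 13 list holds CCL26 and CISH, which passed the filter only through M2, so its separation partly follows from the filter.

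Promoter stretches of KIF11, a spindle motor, and CDC20, an activator of the anaphase-promoting complex, are shown because both held lower and carry the letters of the cell cycle homology region, TTTGAA, through which the DREAM and MuvB complexes are known to act. They come from RefSeq (GRCh38.p14), begin 250 bases before the RefSeq start, run 5′ to 3′ on the gene's strand and end before the first transcribed base of the GENCODE gene; capitals mark TTTGAA or its reverse complement TTCAAA.
KIF11 promoter (chr10:92592880-92593129, plus strand): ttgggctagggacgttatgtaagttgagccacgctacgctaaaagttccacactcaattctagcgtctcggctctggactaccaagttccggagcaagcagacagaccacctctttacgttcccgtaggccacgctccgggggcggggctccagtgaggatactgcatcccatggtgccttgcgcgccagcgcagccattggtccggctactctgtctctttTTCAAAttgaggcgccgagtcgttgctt
CDC20 promoter (chr1:43358731-43358954, plus strand): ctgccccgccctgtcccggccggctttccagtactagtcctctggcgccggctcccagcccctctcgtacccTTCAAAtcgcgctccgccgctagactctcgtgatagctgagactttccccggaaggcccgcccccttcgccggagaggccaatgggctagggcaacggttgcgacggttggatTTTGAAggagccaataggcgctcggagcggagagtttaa
The match in KIF11 begins 28 bases before the start, and those in CDC20 begin 178 and 65 bases before it. In windows of 300 bases, 30 of 46 promoters of mitosis and spindle genes held TTTGAA on either strand (65.2%), against 10.6% of the 14272 promoters of tested genes, 4.08% of 49 promoters of the replication list, 21.3% of promoters of genes that held lower and 9.69% of those that held higher. The share of the mitosis list describes that list and does not rest on the M2 libraries.

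**Figure D4:**
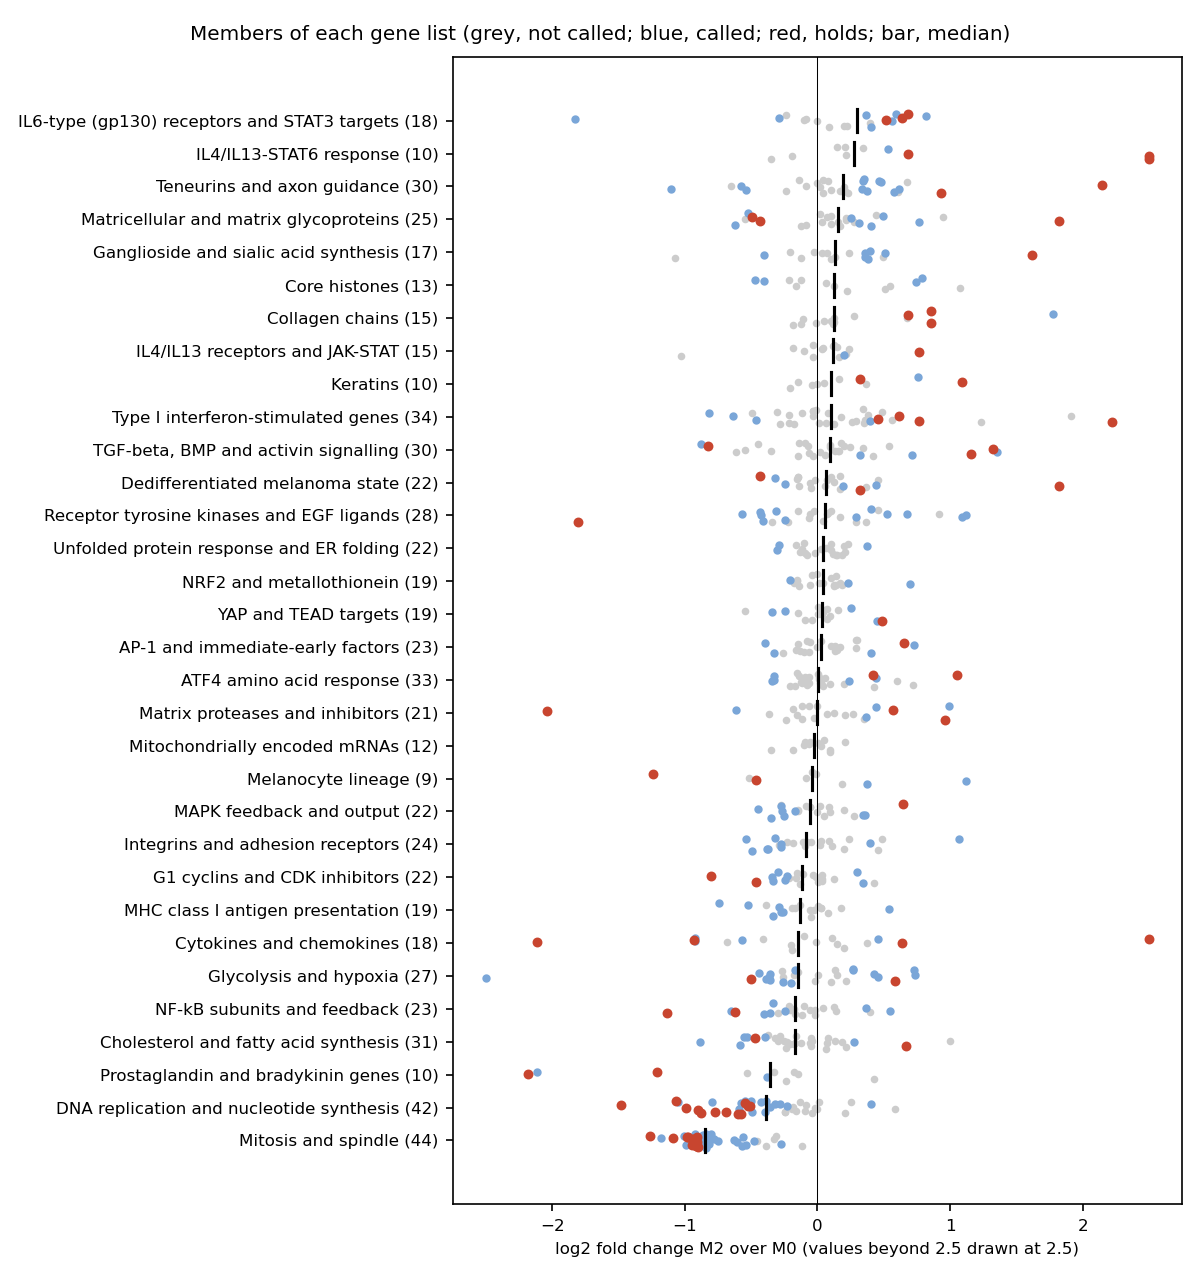
Log2 fold change of M2 over M0 for the tested members of 32 gene lists, ordered by their median (black bar), with list sizes in parentheses; red points hold, blue points were called and do not hold, grey points were not called, and values beyond 2.5 are drawn at 2.5. The mitosis list lies wholly below 0, the replication list mostly so, and most other lists straddle 0.

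Of 27 glycolysis and hypoxia genes 7 rose (25.9%, against 12.5% of all genes) and 10 fell (37%, against 12.7%), and 2 of these 17 held. The enzymes of glycolysis GAPDH, PKM, LDHA, PGK1, GPI and TPI1 fell by 0.36, 0.39, 0.37, 0.26, 0.36 and 0.51 on the log2 scale, of which TPI1 held. Other glycolytic genes rose without holding: the glucose transporter SLC2A3 by 0.74, PFKFB4 by 0.73, the enolase ENO2 by 0.45 and the hexokinase HK1 by 0.27. The vasodilator peptide gene ADM rose by 0.59 and held. In the 31 genes of cholesterol and fatty acid synthesis INSIG1, which retains the sterol sensor in the endoplasmic reticulum, rose from 21.98 ± 2.17 CPM in M0 to 35.1 ± 1.43 in M2 (log2 fold change 0.67, SE 0.084, adjusted p = 0.000411) and FDFT1, squalene synthase, went from 40.2 ± 2.96 CPM in M0 to 29 ± 1.604 in M2. Both held, and 1 further gene rose and 5 fell without holding. Of this list 6.45% rose (against 12.5% of all genes) and 19.4% fell (against 12.7%). DUSP4, a phosphatase of MAP kinases, rose by 0.65 and held, as did the nuclear receptor NR4A1 (0.65) and MYOF, myoferlin (0.49), each the only member of its list to do so. Of 9 melanocyte lineage genes 2 rose (22.2%, against 12.5% of all genes) and 2 fell (22.2%, against 12.7%), and the 2 that fell held: BCL2A1, a BCL2 relative, went from 6.15 ± 1.92 CPM in M0 to 2.58 ± 0.489 in M2 and the kinase CDK2 from 38.7 ± 7.46 CPM in M0 to 28.2 ± 2.48 in M2. In the dedifferentiated melanoma list of 22 genes 4 rose (18.2%, against 12.5% of all genes) and 3 fell (13.6%, against 12.7%), with TNC, KRT18 and SOX9 holding, the last at a log2 fold change of -0.43. Among 22 genes of the unfolded protein response, 19 of NRF2 and metallothionein genes, 24 integrins and adhesion receptors and 13 histones, 1, 2, 2 and 2 rose and 2, 1, 7 and 2 fell, and none held. Of the integrins 29.2% fell, and the other shares in these 4 lists were between 4.55% and 15.4%, against 12.5% higher and 12.7% lower among all genes. The 12 mitochondrially encoded mRNAs had a median log2 fold change of -0.024 with all libraries and 0.072 with both left out.

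Of the 15 highest changes that held (higher group at 1 CPM or above), 5 carried clone-based names only and 1 was LINC00174, a long noncoding RNA. The other 9 were TENM2, TNC, ST8SIA1, REC8, LPAR2, S100P, CFAP70, PLXNA3 and QRICH2. S100P, a calcium-binding protein of carcinomas, had 0.776, 1.26 and 0.456 CPM in the M0 libraries and 2.39, 3.55 and 2.86 CPM in the M2 libraries; it stood at 0.0112 ± 0.0193 CPM in fresh medium, where it was near the floor. LPAR2, a receptor for lysophosphatidic acid, had 0.439, 0.419 and 0.175 CPM in the M0 libraries and 0.976, 1.21 and 1.65 CPM in the M2 libraries, and PLXNA3, a semaphorin co-receptor, 1.08, 1.26 and 0.421 CPM in the M0 libraries and 2.71, 2.66 and 3.15 CPM in the M2 libraries. In these 3 genes M0 replicate 3 was the lowest library. The means of S100P, LPAR2 and PLXNA3 in M1 medium were 4.21, 1.78 and 3.17 CPM, each above the mean in M2. REC8, a meiotic cohesin subunit, had 0.169, 0.1397 and 0.315 CPM in the M0 libraries and 1.27, 1.1 and 0.858 CPM in the M2 libraries, with M0 replicate 3 the highest of M0, and its log2 fold change was 2.33 with all libraries and 2.77 (adjusted p = 0.0081) without the 2. M1 medium gave it a higher level, 4.105 ± 0.642 CPM.

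The 15 lowest, besides CXCL8, MMP3, BDKRB1, HGF, TYMS and SPC25, were ARHGDIB, MPP4, SRPX2, CNIH2, HACD4, APOBEC3B, EVI2A, ACOX2 and PCLAF. ARHGDIB, best known from blood cells, had 11.1, 7.36 and 18.02 CPM in the M0 libraries and 4.095, 2.98 and 3.004 CPM in the M2 libraries (log2 fold change -1.85, SE 0.25, adjusted p = 0.000459). In M1 medium the mean of ARHGDIB was 3.53 ± 0.508 CPM, near that in M2 (3.36 ± 0.637). APOBEC3B, a DNA cytosine deaminase, had 3.95, 3.72 and 7.15 CPM in the M0 libraries and 1.98, 1.31 and 1.72 CPM in the M2 libraries (log2 fold change -1.56, SE 0.23, adjusted p = 0.00085), and PCLAF, a PCNA-associated factor, 12.6, 9.45 and 14.8 CPM in the M0 libraries and 6.46, 3.12 and 4.36 CPM in the M2 libraries. In ARHGDIB, APOBEC3B and PCLAF M0 replicate 3 was the highest library and the groups did not overlap. SRPX2, a secreted sushi-repeat protein, had 3.14, 2.37 and 3.22 CPM in the M0 libraries and 1.17, 0.816 and 0.715 CPM in the M2 libraries, and its log2 fold change moved little, from -1.68 to -1.53 (adjusted p = 0.0184) with both libraries left out. Of the 15, 13 also had a lower mean in M2 than in fresh medium, and CXCL8 and MMP3 had a higher one.

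The most abundant genes that held changed by less than 2-fold. ANPEP, the cell-surface aminopeptidase CD13, had 507, 493 and 533 CPM in the M0 libraries and 942, 858 and 913 CPM in the M2 libraries (log2 fold change 0.82, SE 0.077, adjusted p = 6.7e-05), and the fold was as large without the 2 libraries, at 0.90 (adjusted p = 0.00193). KTN1, kinectin, went from 553 ± 36.1 CPM in M0 to 846 ± 21.1 in M2, MYOF from 634 ± 19.1 CPM in M0 to 888 ± 32.05 in M2 and MACF1, a linker of actin and microtubules, from 623 ± 49.5 CPM in M0 to 800.3 ± 49.96 in M2. Lower were TUBB, a beta tubulin, from 1426 ± 132 CPM in M0 to 1070.0 ± 18.2 in M2, CD59, a complement inhibitor, from 1391 ± 118 CPM in M0 to 1065 ± 29.6 in M2, SSR3, of the translocon-associated complex, from 1060.2 ± 66.2 CPM in M0 to 845 ± 17.5 in M2, XRCC5, the Ku80 repair protein, from 948 ± 53.5 CPM in M0 to 746 ± 13.4 in M2, and TARS, threonyl-tRNA synthetase, from 895 ± 80.2 CPM in M0 to 692 ± 14.8 in M2.

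Large changes whose calls, made with all libraries, ended with both left out were, on the higher side, GNB3, TRPV1, C1orf132 and 2 genes with clone-based names, and on the lower side PTGS2, ANGPT1, CD82, TRIM55 and 1 gene with a clone-based name. The log2 fold change of GNB3 went from 1.89 to 1.64 (adjusted p = 0.148), of TRPV1 from 1.63 to 1.41 (adjusted p = 0.0817) and of C1orf132 to 1.40 (adjusted p = 0.152), so these folds stayed of similar size while the calls ended. TRIM55, a muscle ring-finger protein, had 0.742, 0.698 and 2.21 CPM in the M0 libraries and 0.3797, 0.426 and 0.465 CPM in the M2 libraries, with M0 replicate 3 far above the other M0 libraries. ANGPT1, angiopoietin 1, had 0.911, 0.512 and 1.86 CPM in the M0 libraries and 0.461, 0.319 and 0.143 CPM in the M2 libraries, a log2 fold change of -1.80 that went to -1.19 (adjusted p = 0.17). TRPV1, the capsaicin receptor, had 0.607, 0.233 and 0.245 CPM in the M0 libraries and 1.004, 1.14 and 1.39 CPM in the M2 libraries, and here M0 replicate 1 and not M0 replicate 3 stood apart within M0.

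The changes moved with the length of the gene. Among 11842 protein-coding genes tested, split by summed exon length into 3 classes of near equal size at 3952 and 6723 bases, 6.43% of the shortest class rose and 18.2% fell. In the middle class the shares were 12.6% and 15.8%, and in the longest class 21.3% and 8.76%. Median log2 fold changes were -0.072, -0.011 and 0.065 with all libraries and -0.059, -0.0067 and 0.055 with both left out. The mean level of the longest class stood -0.014, -0.036 and -0.065 log2 units from the 6-library mean in M0 replicates 1, 2 and 3 and 0.033, 0.037 and 0.046 in M2. Genes that held higher had a median exon length of 7682.5 bases and those that held lower 4226, against 4684 over tested genes. The part of length in the calls was not tested.

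**Figure D5:**
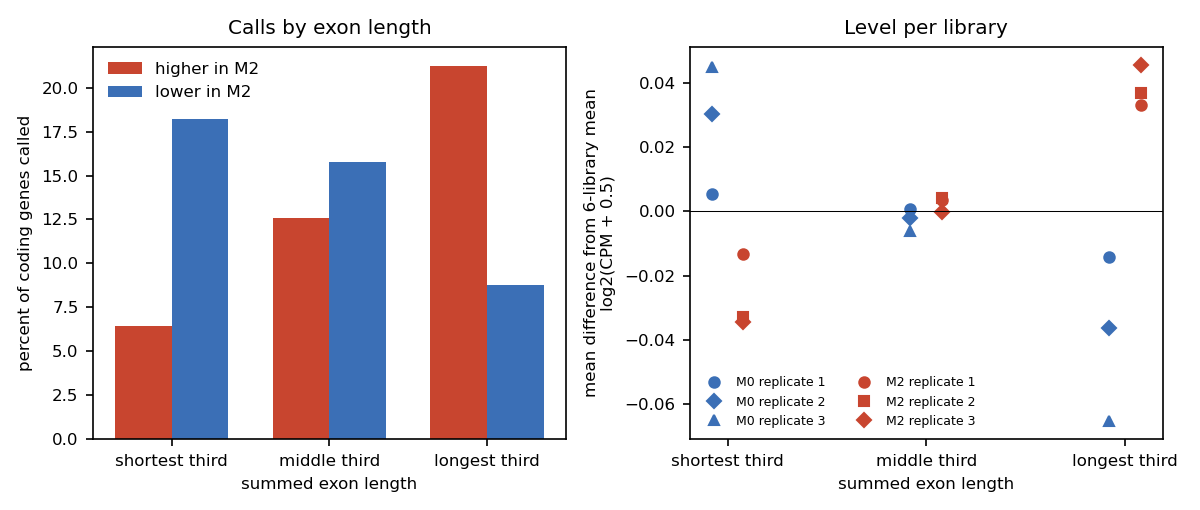
Left, percent of protein-coding genes called higher (red) or lower (blue) in M2, by class of summed exon length; right, mean difference of each library from the mean of the 6 libraries on the log2(CPM + 0.5) scale in the same classes. Higher calls go from 6.43% to 21.3% and lower calls from 18.2% to 8.76%, and the 3 M2 libraries lie on 1 side of the 3 M0 libraries in the shortest and longest classes.

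The strand setting of the count is not given in the sources used here, and reads of genes whose exons overlap on opposite strands cannot be told apart without it. Such an overlap was annotated for 5655 of the 14088 tested genes and 214 of the 510 that held. Of the genes named above it applies to IL4R, STAT6, AXL, EGFR, MCAM, TYMS, CISH, TGM2, TNC, JAK1, SPARC, LAMA4, THBS1, COL18A1, LOX, MMP3, EFNB2, ADGRL1, DCC, B4GALNT1, KRT18, OSMR, IL6, LIFR, PARP9, DTX3L, PSMB8, PSMB9, TNFAIP3, ICAM1, BDKRB1, PMEPA1, PLK1, KIF20A, CCND1, CCND2, CDK2, CDKN1A, GAPDH, TPI1, HK1, FDFT1, NR4A1, REC8, CFAP70, PLXNA3, SRPX2, CNIH2, APOBEC3B, EVI2A, KTN1, MACF1, TUBB, GNB3 and CD82. TYMSOS, the transcript opposite TYMS, was also lower in M2, with 72 reads in M0 and 14 in M2.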

How the data were processed

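RNA of the 12 samples was made into stranded mRNA libraries and read as single 50 nt reads in 2 sequencing runs, per the labels' protocols. The authors deposited raw read counts per gene (58288 identifiers, human build GRCh38), made with tools that include STAR 2.5.4b, Trimmomatic 0.36, DESeq2 1.20.0, FastQC 0.11.7 and Bowtie2 2.2.3, per the submitters' processing notes. How reads were counted, with which strand setting and annotation, is not given in the sources used here. In addition, the authors deposited variance-stabilized log2 values, used only in an alternative. Of the identifiers, 55661 matched GENCODE release 29 with their version, and coordinates and exon lengths come from there. Per-sample files equalled the matrix columns in 12 of 12 libraries.

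Counts of all 12 libraries were fitted with edgeR 4.0.16 (R 4.3.3), using TMM scaling, the filterByExpr filter (at least 10 counts, total of 15), 1 mean per group, the quasi-likelihood test and Benjamini-Hochberg adjustment over 14088 genes at 0.05; the other media enter for the estimate of spread. Adjusted p in the text come from this test. The SE is the absolute log2 fold change over the square root of F. CPM are counts scaled to the TMM library size, given as mean ± SD (n = 3). A count of 3 was taken as the floor of detection. The script was tested on simulated counts.

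Members and gene lists were chosen with earlier results of these data known. Named were the 15 highest and 15 lowest changes that held with 1 CPM or more in the higher group, the 5 most abundant in each direction, the 3 largest called changes of each list, the 5 highest and 5 lowest that ended with both libraries left out, and a fixed set of interleukin 4, 13 and inflammatory genes. Further list members were named after their values were seen, to complete the counts. Alternatives were RLE and upper quartile scaling, DESeq2 1.42.0, voom with quality weights and limma 3.58.1 on the log2 values, no filter, fewer libraries and a replicate block. Promoter windows of 300 bases, 250 before to 50 after the RefSeq start, were found for 9769 of 14084 gene symbols and searched on both strands.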

Additional observations from a re-analysis of the deposited data

Results flagged for a closer look

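M2 replicate 2 had reads on 3759 genes with no read in any other library, while the other 11 libraries had 160 to 453 such genes each. The reads on these genes added up to 4889 with a median of 1 per gene. By annotated type 1236 of the genes were protein coding, 782 were long intergenic noncoding RNAs, 607 processed pseudogenes and 403 antisense RNAs. Most of them lay below the filter on low counts and so outside every comparison. The part of these reads in the results was not tested.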

How the results depend on the processing

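The 3553 calls became 6508 under voom with sample quality weights, 520 with M0 replicate 3 and M2 replicate 2 both left out, and 1595 to 3906 with 1 library left out, lowest without M0 replicate 3. Alternatives added after seeing the data gave 1777 calls when both were left out and only the other 4 M0 and M2 libraries were fitted, and 1782 with the M0 and M2 libraries alone without M2 replicate 2. The 313 calls of 2-fold or more became 96 by limma on the variance-stabilized values, 73 with both libraries left out, 124 in the 4-library fit, 157 and 180 with M0 and M2 alone without M0 replicate 3 and without M2 replicate 2, and 133 to 447 with 1 library left out. Upper quartile scaling gave 1997 higher and 1557 lower calls, a share higher of 56.2% against 49.7%, and moved the median of all genes to 0.025.

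Same-numbered M0 and M2 libraries had correlations of 0.0116, 0.154 and -0.0775 in their deviations from the group means. These values cannot show whether the numbers pair the samples, and no label says that they do. A replicate block gave 3714 calls, 314 of 2-fold or more, and 3434 calls shared with the fit without the block. Of 134 named genes 133 kept their side of the threshold under the block, 130 under DESeq2 and 76 with both libraries left out, where 57 lost the call. IL1B, at -0.0087 (adjusted p = 0.953), changed sign to 0.016 under upper quartile scaling, 0.050 under voom, 0.066 without M0 replicate 3 and 0.032 without M2 replicate 3 (with 1 library left out the range was -0.072 to 0.066), 0.022 with both left out, 0.024 in the 4-library fit and 0.064 in the fit of M0 and M2 without M0 replicate 3. Of named genes that held, CDKN2C lost its call in the fit of M0 and M2 without M2 replicate 2. The cause was not tested. With counts of 10 or fewer per group, as for CCL26 and IRF9 in M0, depth limits the size of a fold.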
